A study of Mus musculus with 16 samples.

Results

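The clustered histone genes are the rows of the counts table whose symbol begins with Hist1h, Hist2h, Hist3h or Hist4h, the names of the 4 histone gene clusters in the mouse symbols used here. They were chosen by symbol alone, and 68 of the 23100 genes in the table met the rule: 6 of type H1, 18 of H2a, 19 of H2b, 12 of H3 and 13 of H4. Of these 68, 54 belonged to Hist1, 10 to Hist2, 3 to Hist3 and 1 to Hist4. A mean of at least 1 CPM (the count scaled to 1e6 counts in the library) over the 16 libraries was reached by 11 of the 68. The lowest of these was Hist2h3c2-ps at 1.30 CPM, and the first below the threshold was Hist1h4h at 0.666 CPM. Because 12 of the 16 libraries are quiescent, this mean leans towards quiescent levels, and Hist2h3c2-ps and Hist1h1e averaged under 1 CPM in the proliferative cells of both genotypes.

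The study sequenced RNA from primary mouse embryonic fibroblasts, taken from C57BL/6 embryos at E13.5 and grown in DMEM with fetal bovine serum. The mutant lines had the genotype Zac+/-, carrying 1 altered allele of Zac1 (symbol Plagl1, an imprinted gene for a zinc finger transcription factor), and the wildtype lines were Zac+/+. The sample titles tag the mutant lines KOpat, but the labels do not state which parent gave the altered allele, which matters for the expression of an imprinted gene, so the parental origin is not assigned here. Each genotype had 2 lines, and each line was harvested at day 2 in vitro, when the cells were proliferative, and at days 8, 10 and 12, when they were quiescent. The labels call the lines biological replicates but do not say which embryos or how many gave each line, so p-values measure the spread between these lines.

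Most core histones are made from multicopy genes that lie in clusters and have no introns, and their mRNAs are made mainly in S phase, when new DNA has to be packaged. These mRNAs are unusual in ending just after a short stem-loop, which the stem-loop binding protein recognises, and not in a poly(A) tail. Some of the same genes can also be read past the stem-loop to a downstream polyadenylation site, which gives a tailed mRNA that has been described in cells that no longer divide. H2A, H2B, H3 and H4 form the nucleosome core, and H1, the linker histone, binds the DNA where it enters and leaves the core.

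The stem-loops are shown for leading members of 4 types and for the 3 members called lower in quiescence, because the stem-loop is the feature that sets these mRNAs apart. The sequences are DNA letters read 5′ to 3′ from GENCODE M21 transcripts (GRCm38), with the 2 stem arms of 6 bases and the loop of 4 in capitals and 5 flanking bases on each side in lower case.
Hist1h1c: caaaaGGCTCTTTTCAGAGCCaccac
Hist3h2a: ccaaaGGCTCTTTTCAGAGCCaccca
Hist2h3c1: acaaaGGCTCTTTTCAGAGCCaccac
Hist1h4i: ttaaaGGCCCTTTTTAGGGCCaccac
Hist1h2ab: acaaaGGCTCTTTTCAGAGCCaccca
Hist1h2bb: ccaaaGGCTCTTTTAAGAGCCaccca
Hist1h3b: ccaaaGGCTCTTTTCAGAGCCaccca
The motif searched was the histone stem-loop consensus, allowing either pyrimidine at 2 positions of the first arm, either purine at the opposite 2, and any base but G at 1 loop position, on the transcript strand. It was found in 44 of the 68 members and in 57 of all 141767 GENCODE transcripts, or 0.0402%, with 7 genes outside the list among them. The search can find the motif only where an annotated transcript reaches it. The members without a match include a gene whose longest annotated transcript has 312 bases. A missing match therefore does not show that a gene lacks the stem-loop. Hist1h1c, Hist3h2a and Hist2h3c1 share the capital letters with Hist1h2ab and Hist1h3b. The search fixed most of these letters in advance, so the shared stretch says nothing about the direction of change in quiescence.

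The annotation beyond the loop varied in length. The transcript that ran furthest past it extended 840 bases in Hist1h1c, 1643 in Hist3h2a, 1167 in Hist2h3c1 and 330 in Hist1h4i. The same distance was 11 bases in Hist1h2ab, 23 in Hist1h2bb and 51 in Hist1h3b. These members were picked for display, and whether the length goes with the direction of change in quiescence was not tested. Hist1h4i, with 330 bases, had log2 changes of -1.27 in the mutant (SE 0.49) and -1.14 in the wildtype (SE 0.49). Hist1h3f, named after its values were seen, had 365 bases and only 58 counts over the 16 libraries. Its changes were -1.59 (SE 0.97) and -1.75 (SE 0.96), and neither gene was called in edgeR. Of the 11 members with a mean of at least 1 CPM, 9 held the motif, and in all 9 at least 330 bases were annotated after it, with a median of 1167 and a maximum of 4884 in Hist1h1d. The other 2, Hist1h2bc and Hist2h2be, had no match to these letters in their transcripts. Of the 9, Hist1h1e, Hist1h4i and Hist2h3c2-ps had no AATAAA, a polyadenylation signal, after the motif in the transcript that ran furthest. Among the 57 members below 1 CPM, the motif was found in the annotated transcripts of 35, with a median of 46 bases after it. In 22 of those 35 at most 100 bases followed the loop, and in 9 more than 300 did, up to 2445 in Hist4h4, whose mean was 0.414 CPM.

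**Figure D1:**
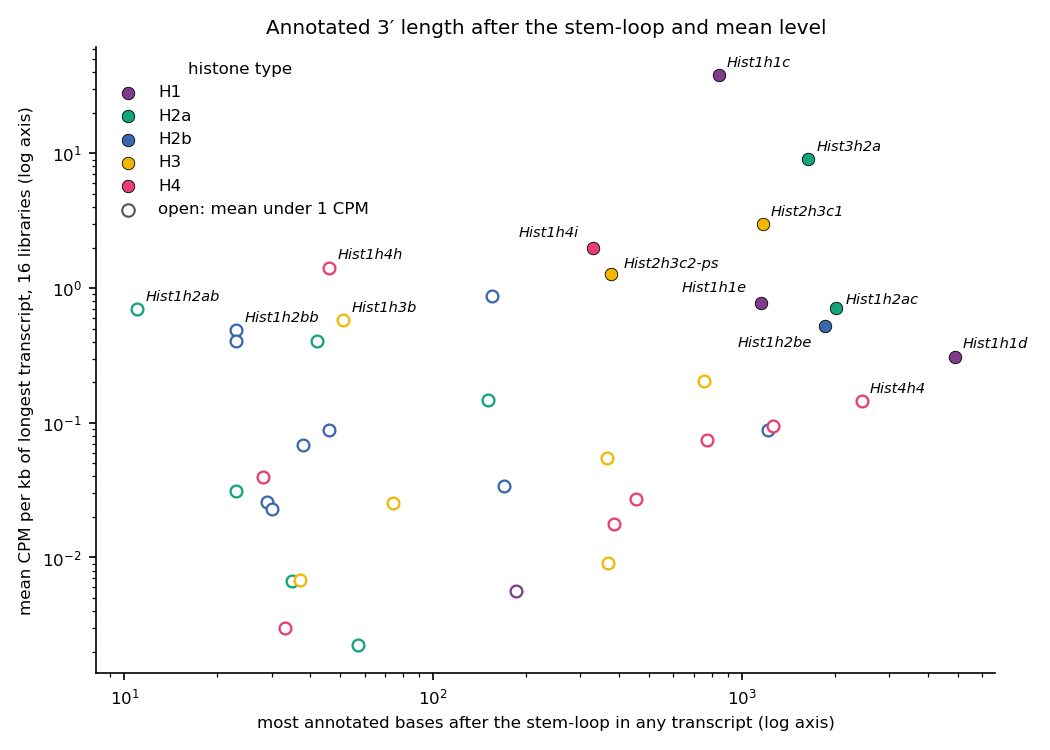
Each point is a clustered histone gene with a stem-loop match and at least 1 count. The x axis gives the most bases annotated after the loop in any transcript and the y axis the mean CPM per kb of its longest transcript, both on log axes, coloured by histone type, with open points for a mean under 1 CPM. All 9 filled points lie at 330 bases or more, while open points lie at both short and long distances, and Hist1h4h, with 46 bases after the loop, reached 1.42 CPM per kb.

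A longer transcript collects more reads, so levels were compared between genes per kb of the longest GENCODE transcript. On that scale Hist1h1c had 37.9 CPM per kb, Hist1h2bc 16.3, Hist3h2a 9.02 and Hist2h3c1 2.99. The other 7 members with at least 1 CPM lay between 0.309 CPM per kb in Hist1h1d and 1.99 in Hist1h4i. The 57 members below 1 CPM had a median of 0.0382 CPM per kb, and 8 of them exceeded Hist1h1d, led by Hist1h4h at 1.42. The Hist1h1d value rests on an annotated transcript of 7425 bases, and which transcript of a gene was expressed and counted is not known. With lengths taken this way, the threshold of 1 CPM separated members by count and not wholly by level per length.

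The signal in the family was concentrated in few genes. All 68 members together took 0.00716% to 0.0166% of the counts of a library. Hist1h1c, Hist3h2a and Hist1h2bc held 81.3% of the members' counts, and the 11 members with at least 1 CPM held 96.0%. The median of the 57 others was 0.0162 CPM, and 10 of them had no count in any library, where 3 counts over all 16 libraries would be 0.00382 CPM. The RNA selection step of the library kit is not given in the sources used here. Among RNAs that are known to lack a poly(A) tail, chosen after their values were seen, Rmrp lay at 0.0269 to 1.39 CPM, Rpph1 at 0.0269 to 1.24 and Terc at 0 to 0.283 CPM. Malat1, a long RNA whose end is also made without a poly(A) tail, lay at 1020 to 3920 CPM with a median of 2180. The medians were 0.242 CPM for Rmrp, 0.456 for Rpph1 and 0.0776 for Terc. What part RNA selection had in the low histone levels was not tested.

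Many histone genes are near copies, and reads that fit several of them may be dropped or split in counting. In the 11 members with at least 1 CPM, a median of 82.1% of the 50-base windows of the longest transcript occurred in no other member, with a range of 36.5% to 100%. In the 57 others the median was 47.7%, and in the 10 members without a count 10.9%, ranging from 0% to 97.7%. Hist2h3c2-ps had the lowest share among the 11, 36.5%, and Hist2h3c1 had 65.3%, so the split of reads between these H3 genes is uncertain. How the deposited counting treated reads with several matches is not given in the sources used here, and its part in the low values was not tested.

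Total counts ran from 28079241 to 61039793 per library, so that 3 counts correspond to 0.0491 to 0.107 CPM. Plagl1 itself had 40.7 to 61.5 CPM in the 6 quiescent mutant libraries and 129 to 239 in the 6 quiescent wildtype libraries. In the proliferative libraries it had 7.45 and 8.90 CPM in the mutant lines, against 36.5 and 43.0 in the wildtype lines, so mutant and wildtype did not overlap within either state. The summed level of 8 fibroblast markers was 51900 to 67000 CPM in quiescent mutant, 23000 to 23400 in proliferative mutant, 48200 to 56100 in quiescent wildtype and 20100 to 21300 CPM in proliferative wildtype libraries. The 10 macrophage and blood markers summed to 13.4 to 471 CPM in quiescent mutant and 13.6 to 104 in proliferative mutant libraries, and to 30.8 to 263 in quiescent wildtype and 19.7 to 79.6 CPM in proliferative wildtype libraries. The 5 endothelial markers summed to 2.56 to 5.81 CPM in quiescent and at least 12.4 in proliferative mutant libraries, and to 2.65 to 7.34 CPM in quiescent and 13.7 to 15.9 in proliferative wildtype libraries. The 5 epithelial markers summed to 1.53 to 3.15 CPM in quiescent and 12.0 to 14.6 in proliferative mutant libraries, and to 2.48 to 4.69 CPM in quiescent and 10.2 to 12.6 in proliferative wildtype libraries. Both sums were thus lower in every quiescent library, and in the edgeR test described next Kdr, Krt8 and Krt18 were called lower and Tek and Cdh1 higher in both genotypes, with Krt14 lower in the mutant. The 5 cartilage markers summed to 97.9 to 577 CPM in quiescent and 165 to 389 in proliferative mutant libraries, and to 117 to 280 CPM in quiescent and 178 to 299 in proliferative wildtype libraries, with Comp called higher in both genotypes. The 3 neural markers summed to at most 36.6 CPM, and the 6 germ cell markers to 0.557 to 2.97 CPM, with no call in either list. The 4 erythroid markers summed to at most 0.102 CPM and were not tested. Tie1 (endothelial), Hba-a1 and Hbb-b1 (erythroid) and Prm1 and Tnp1 (germ cell) were at 0 in every library. What part these differences in cell markers had in the histone results was not tested.

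The comparison of quiescent with proliferative cells sets days 8, 10 and 12 against day 2. State and time in culture therefore cannot be told apart, and every change with quiescence given here carries this limit. Hist1h1c, Hist2h3c1 and Hist2h3c2-ps were called higher in quiescent cells of both genotypes and Hist1h3b lower in both. Hist1h1c, the most abundant, had a fold of 2.04 in the mutant and 1.91 in the wildtype. For this test the day 8, 10 and 12 counts of a line were added, which gave 8 summed libraries in 4 groups. edgeR's quasi-likelihood test ran on the 15740 genes that passed a filter on low counts. A gene was called where its Benjamini-Hochberg adjusted p, over all genes tested, was under 0.05. Of the 68 members 28 passed the filter and 40 did not.

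In the mutant, 5 members were called higher and 1 lower in quiescence, against 21.1% of all genes called higher and 21% called lower (42.1% in either direction). In the wildtype, 4 were called higher and 3 lower, against backgrounds of 23.9% and 23.7% (47.6% in either direction). The members' own shares were 17.9% higher and 3.57% lower in the mutant, and 14.3% and 10.7% in the wildtype, so neither share of higher calls exceeded the background. The median log2 fold change of the 28 was 0.24 in the mutant and 0.14 in the wildtype, beside 0.05 over all genes in either genotype. It describes only members that passed the filter, which a gene can pass through 1 group alone.

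**Figure D2:**
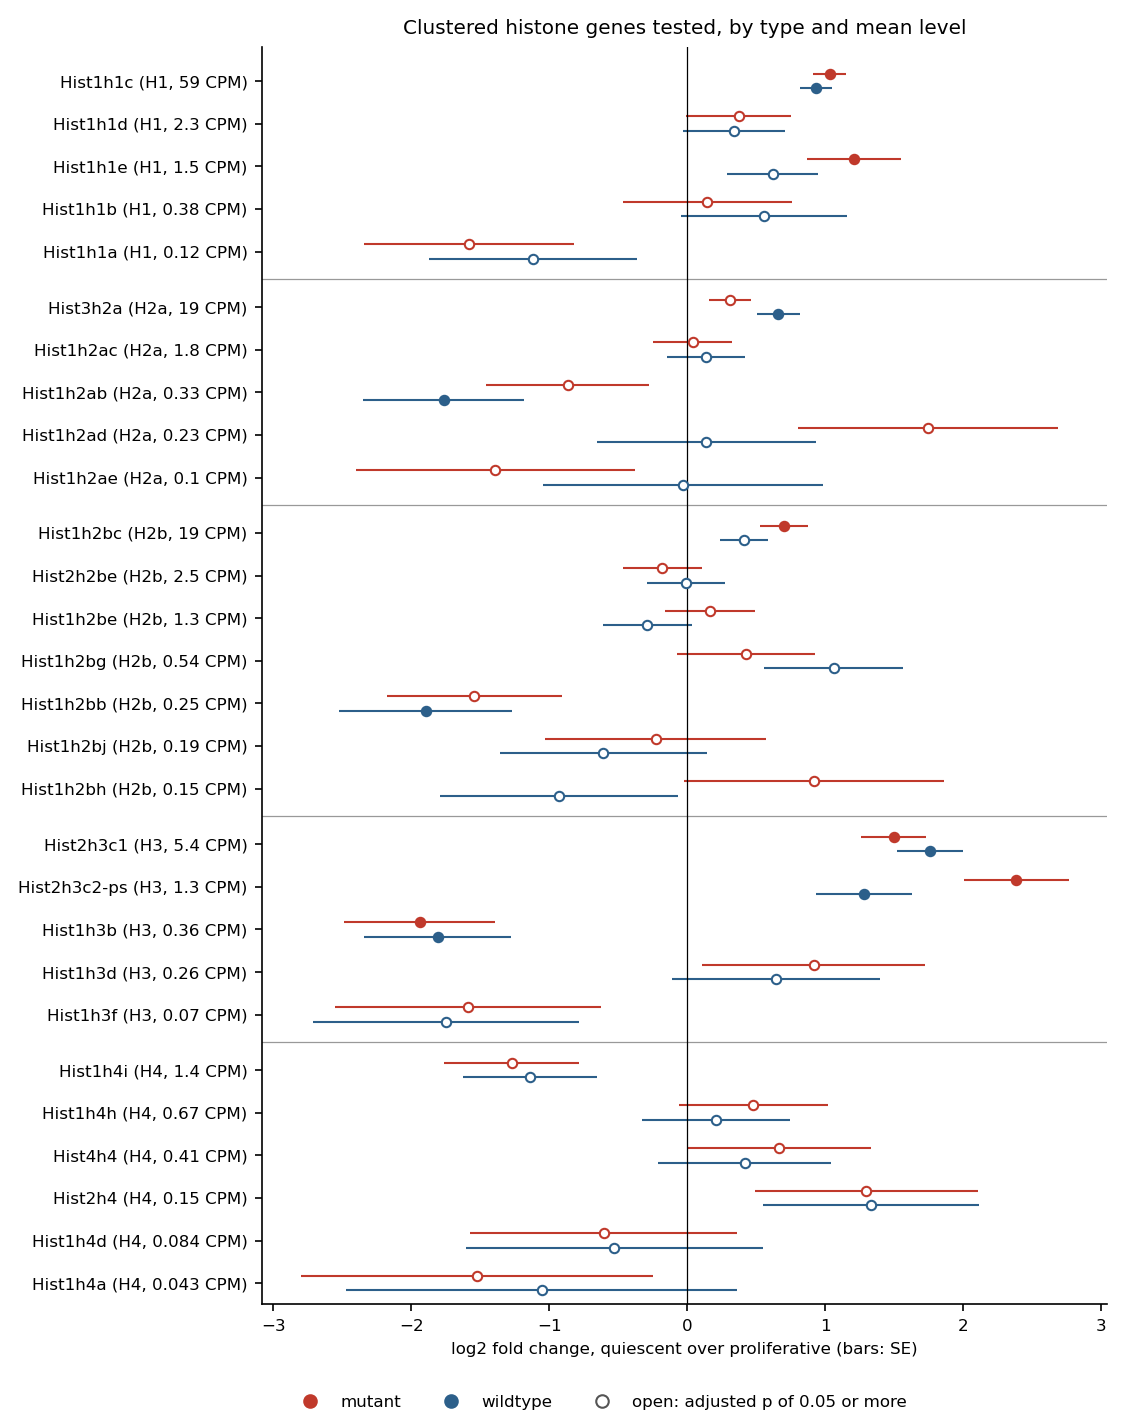
The log2 fold change of quiescent over proliferative cells is shown for the 28 tested members, grouped by type and ordered by mean CPM, which stands beside each name. Mutant points lie above wildtype points, bars give the SE, and filled points have an adjusted p under 0.05. Bars widen towards low mean CPM, and Hist1h1c, Hist2h3c1 and Hist2h3c2-ps have filled points to the right of 0 in both genotypes.

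H1 was led by Hist1h1c, which encodes the linker histone H1.2 and held 93.3% of the H1 counts. Over days 2, 8, 10 and 12 it had 29.9, 50.9, 72.3 and 77.2 CPM in mutant line 1 and 34.9, 51.8, 87.7 and 73.1 CPM in mutant line 2. In wildtype line 1 it had 32.7, 52.5, 63.4 and 78.7 CPM, and in wildtype line 2 33.4, 54.3, 76.5 and 77.1 CPM. All 12 quiescent libraries lay above all 4 proliferative ones. In the mutant it averaged 67.8 ± 4.02 CPM in quiescent and 32.4 ± 3.51 CPM in proliferative cells (SD, n = 2 lines), a log2 fold change of 1.03 (SE 0.12, adjusted p = 0.000109). In the wildtype the means were 67.5 ± 2.87 CPM in quiescent and 33.0 ± 0.538 CPM in proliferative cells, a log2 fold change of 0.93 (SE 0.12, adjusted p = 0.000153). It kept both calls under all 16 alternatives.

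Hist1h1e, the gene for H1.4, was called higher in the mutant. Over the 4 days it had 0.890, 1.23, 2.05 and 2.37 CPM in mutant line 1 and 0.662, 1.65, 1.94 and 1.94 in mutant line 2, against 0.874, 1.16, 1.42 and 1.82 in wildtype line 1 and 1.05, 1.55, 1.87 and 1.64 CPM in wildtype line 2. All 12 quiescent libraries again lay above the 4 proliferative ones. The log2 fold change was 1.21 in the mutant (SE 0.34, adjusted p = 0.0167) and 0.62 in the wildtype (SE 0.33, adjusted p = 0.150). The mutant call was lost without mutant line 1 (adjusted p = 0.0655) or line 2 (0.223). The difference between the genotypes' changes was 0.59 (SE 0.47, adjusted p = 1).

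The other H1 members gave no call. Hist1h1d, for H1.3, had log2 fold changes of 0.37 in the mutant (SE 0.38) and 0.34 in the wildtype (SE 0.37). Hist1h1a, for H1.1, had 0 to 0.215 CPM in the quiescent mutant libraries, against 0.32 and 0.179 CPM in the proliferative mutant lines. In the wildtype it had 0 to 0.17 CPM in quiescent and 0.225 and 0.147 CPM in proliferative libraries. These ranges overlapped, and its log2 fold changes were -1.58 (SE 0.76, adjusted p = 0.122) in the mutant and -1.12 (SE 0.75, adjusted p = 0.252) in the wildtype.

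The H2a signal was almost all from Hist3h2a, which lies outside the main cluster and held 88.8% of the H2a counts. Over days 2, 8, 10 and 12 it had 13.53, 20.6, 20.2 and 19.8 CPM in mutant line 1 and 18, 20.2, 23.7 and 14.1 CPM in mutant line 2. The wildtype values were 14.0, 22.2, 20.5 and 21.9 CPM in line 1 and 12.4, 20.4, 25.5 and 22.8 CPM in line 2. Every wildtype quiescent library exceeded the wildtype proliferative ones, while mutant line 2 was lower at day 12 than at day 2. Its log2 fold change was 0.31 in the mutant (SE 0.16, adjusted p = 0.138) and 0.66 in the wildtype (SE 0.16, adjusted p = 0.00641). The wildtype call was lost without wildtype line 2 (adjusted p = 0.192), and the changes did not differ detectably between genotypes (difference -0.35, SE 0.22, adjusted p = 1).

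Hist1h2ab, a short transcript of the main cluster, was called lower in the quiescent wildtype. It had 0.463, 0.205, 0.424 and 0.406 CPM over the 4 days in mutant line 1 and 0.429, 0.150, 0.280 and 0.0269 CPM in mutant line 2. In the wildtype it had 0.761, 0.284, 0.189 and 0.450 CPM in line 1 and 0.754, 0.132, 0.279 and 0.0552 CPM in line 2. Within each line every quiescent value was below the day 2 value. Quiescent over proliferative, the log2 change was -0.87 in the mutant (SE 0.59, adjusted p = 0.268) and -1.77 in the wildtype (SE 0.58, adjusted p = 0.0304). The wildtype call was lost without wildtype line 1 (adjusted p = 0.0876), wildtype line 2 (0.275), day 8 (0.0501) or day 10 (0.0675). Hist1h2ac, at a mean of 1.76 CPM, had log2 fold changes of 0.04 in the mutant (SE 0.29) and 0.13 in the wildtype (SE 0.28).

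Of the H2b counts, Hist1h2bc held 78.7%. It had 10.7, 18.7, 25.4 and 22.9 CPM over the 4 days in mutant line 1 and 15.5, 16.4, 29.5 and 17.6 CPM in mutant line 2. Wildtype line 1 had 14.8, 23.7, 19.7 and 18.7 CPM and wildtype line 2 had 12.8, 14.3, 21.01 and 20.6 CPM. Each line was above its own day 2 value at every later day, but the quiescent and proliferative ranges overlapped across lines. The log2 fold change was 0.70 in the mutant (SE 0.18, adjusted p = 0.0102) and 0.41 in the wildtype (SE 0.18, adjusted p = 0.0791). The mutant call was lost without mutant line 1, where the change was 0.45 (adjusted p = 0.118), and without day 10 (adjusted p = 0.0727). In the wildtype a call appeared without mutant line 1 (adjusted p = 0.0397) or mutant line 2 (0.0335), where the change was 0.39 and 0.42, and with upper-quartile scaling (0.0457).

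Hist1h2bb fell in wildtype quiescent cells. Over the 4 days it had 0.499, 0.171, 0.102 and 0.0312 CPM in mutant line 1 and 0.411, 0.244, 0.168 and 0.188 CPM in mutant line 2. In the wildtype it had 0.423, 0.0609, 0.166 and 0.144 CPM in line 1 and 0.721, 0.226, 0.192 and 0.203 CPM in line 2. All 12 quiescent libraries lay below the 4 proliferative ones. Its log2 fold change was -1.54 in the mutant (SE 0.64, adjusted p = 0.0776) and -1.90 in the wildtype (SE 0.62, adjusted p = 0.0304). The wildtype call was lost without wildtype line 1 (adjusted p = 0.155), wildtype line 2 (0.204) or day 8 (0.0503). Hist1h2bg, with the highest wildtype H2b change, had 0.187 to 0.801 CPM in quiescent and 0.358 and 0.499 CPM in proliferative mutant libraries, against 0.260 to 1.03 CPM in quiescent and 0.282 and 0.295 CPM in proliferative wildtype libraries. Its log2 fold changes were 0.43 in the mutant (SE 0.50, adjusted p = 0.519) and 1.06 in the wildtype (SE 0.51, adjusted p = 0.111). Hist2h2be and Hist1h2be, both above 1 CPM, had log2 fold changes between -0.29 and 0.17.

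H3 held calls in both directions in each genotype. Hist2h3c1, with 72.1% of the H3 counts, had 2.03, 5.98, 5.82 and 7.96 CPM over the 4 days in mutant line 1 and 2.47, 5.72, 8.38 and 5.73 CPM in mutant line 2. Wildtype line 1 had 1.58, 4.38, 7.17 and 6.44 CPM and wildtype line 2 had 2.03, 5.54, 7.14 and 8.78 CPM. All 12 quiescent libraries lay above the 4 proliferative ones, and the log2 fold change was 1.496 in the mutant (SE 0.24, adjusted p = 0.000747) and 1.76 in the wildtype (SE 0.24, adjusted p = 0.00023). Both calls held under all 16 alternatives.

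Hist2h3c2-ps, a pseudogene by its symbol and also in the Hist2 cluster, was called higher in both genotypes. It had 0.249, 1.52, 1.63 and 1.53 CPM in mutant line 1 and 0.322, 1.18, 1.81 and 1.72 CPM in mutant line 2, against 0.592, 0.994, 1.85 and 1.71 CPM in wildtype line 1 and 0.639, 1.32, 1.57 and 2.23 CPM in wildtype line 2. No quiescent library was as low as a proliferative one. Quiescent over proliferative, the log2 change was 2.39 in the mutant (SE 0.38, adjusted p = 0.000778) and 1.28 in the wildtype (SE 0.35, adjusted p = 0.0125). The wildtype call was lost without wildtype line 1 (adjusted p = 0.121) or line 2 (0.173). Reads of these near copies may be exchanged, so they are not independent observations.

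Hist1h3b was the only member called lower in both genotypes. It had 0.819, 0.222, 0.288 and 0.219 CPM over the 4 days in mutant line 1 and 0.590, 0.0188, 0.224 and 0.134 CPM in mutant line 2. Wildtype line 1 had 0.958, 0.304, 0.308 and 0.216 CPM and wildtype line 2 had 0.737, 0.132, 0.210 and 0.387 CPM. Every quiescent library was below every proliferative one. The log2 fold change was -1.94 in the mutant (SE 0.55, adjusted p = 0.0175) and -1.81 in the wildtype (SE 0.54, adjusted p = 0.019). The mutant call was lost without mutant line 1 (adjusted p = 0.0685) or line 2 (0.134), and the wildtype call without wildtype line 1 (0.181) or line 2 (0.129). In bulk libraries a lower level can come from fewer cells that hold the transcript or from less of it per cell, and these cannot be told apart.

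H4 gave no call. Hist1h4i held 50% of the H4 counts and had 1.25, 1.53, 1.24 and 1.25 CPM over the 4 days in mutant line 1, but 3.67, 0.863, 1.05 and 0.215 CPM in mutant line 2. Wildtype line 1 had 2.65, 2.15, 0.710 and 1.26 CPM and wildtype line 2 had 2.31, 0.792, 1.26 and 0.957 CPM. Mutant line 1 was level while the other 3 lines were highest at day 2. Its log2 fold change was -1.27 in the mutant (SE 0.49, adjusted p = 0.0602) and -1.14 in the wildtype (SE 0.49, adjusted p = 0.079). The mutant value was -2.29 without mutant line 1 (adjusted p = 0.00426) and 0.07 without mutant line 2 (adjusted p = 0.933), and the wildtype value passed the threshold without mutant line 1 (adjusted p = 0.0135), mutant line 2 (0.0205) or day 8 (0.0484). DESeq2 called Hist1h4i lower in both genotypes (adjusted p = 0.0276 in the mutant and 0.045 in the wildtype). Hist2h4, with the highest wildtype H4 change, had 0.0171 to 0.390 CPM in quiescent and 0.0356 and 0.0894 CPM in proliferative mutant libraries, against 0 to 0.349 CPM in quiescent and 0.0655 and 0.0845 CPM in proliferative wildtype libraries. These overlapped, and its log2 fold changes were 1.30 in the mutant (SE 0.81, adjusted p = 0.227) and 1.33 in the wildtype (SE 0.78, adjusted p = 0.189).

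**Figure D3:**
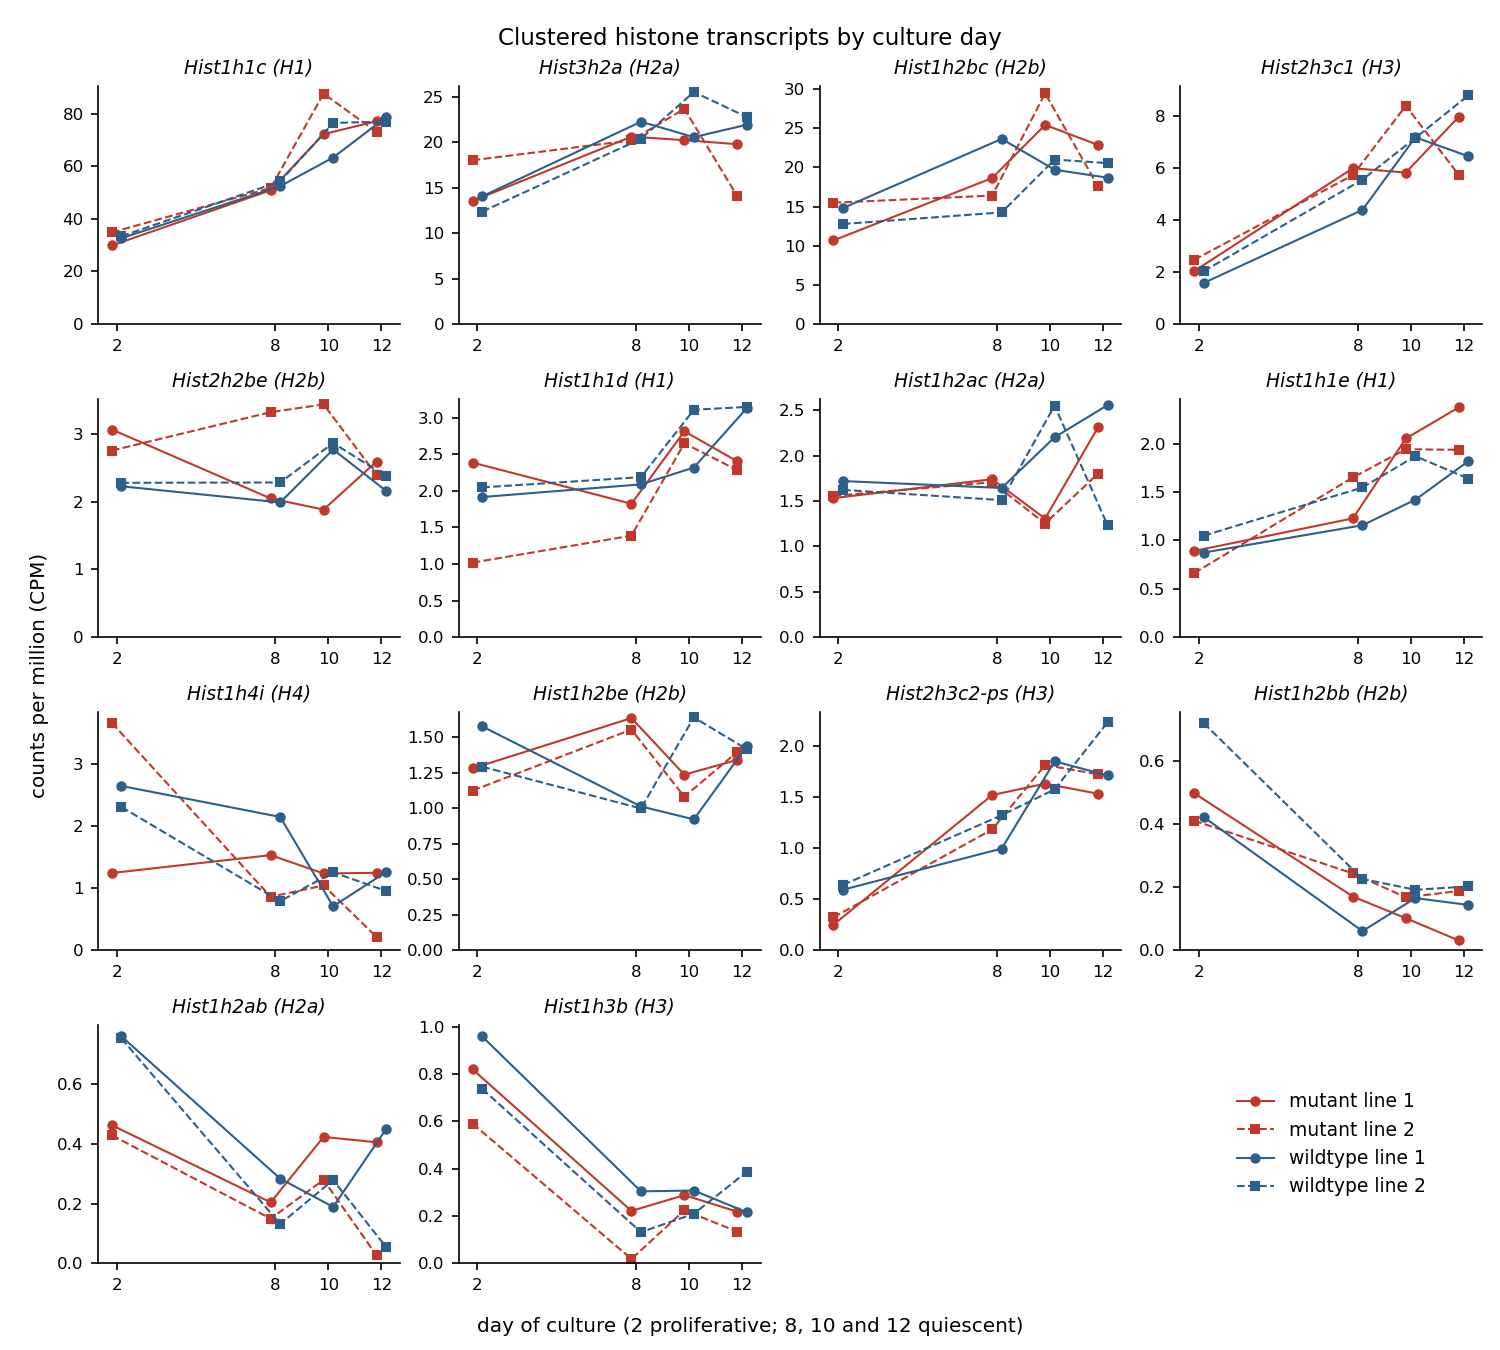
CPM against day of culture for the 11 members with a mean of at least 1 CPM and the 3 called lower in quiescence, with each mutant line in red and each wildtype line in blue (circles line 1, squares line 2), on linear axes from 0. Hist1h1c, Hist2h3c1, Hist1h1e and Hist2h3c2-ps lie higher in every line after day 2, and Hist1h2bb, Hist1h2ab and Hist1h3b lie lower.

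Hist1h2bb, Hist1h2ab and Hist1h3b follow each other on chromosome 13 with no other annotated gene between them, and Hist1h1c lies close by in the same cluster. Their promoters are shown because they are neighbours whose transcripts moved in opposite directions with quiescence. Each window of 300 bases lies mostly before the annotated start, on the plus strand, and comes from RefSeq (GRCm38.p6). The capitals mark matches on either strand to the octamer ATTTGCAT, the CCAAT box, the TATA motif TATAAA and the H1 box AAACACA.
Hist1h1c, chr13:23738557-23738856: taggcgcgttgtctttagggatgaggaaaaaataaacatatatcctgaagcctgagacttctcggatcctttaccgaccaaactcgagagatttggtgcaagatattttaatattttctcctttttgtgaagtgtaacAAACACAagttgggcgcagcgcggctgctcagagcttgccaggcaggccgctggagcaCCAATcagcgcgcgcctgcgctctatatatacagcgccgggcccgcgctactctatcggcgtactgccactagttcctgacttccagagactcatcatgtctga
Hist1h2bb, chr13:23746484-23746783: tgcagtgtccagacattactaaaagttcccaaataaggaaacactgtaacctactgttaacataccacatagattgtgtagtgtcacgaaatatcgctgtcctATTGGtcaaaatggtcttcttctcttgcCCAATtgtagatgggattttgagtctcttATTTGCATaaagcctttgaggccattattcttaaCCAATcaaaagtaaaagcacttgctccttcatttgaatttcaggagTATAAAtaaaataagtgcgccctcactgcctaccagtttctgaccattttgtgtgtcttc
Hist1h2ab, chr13:23750838-23751137: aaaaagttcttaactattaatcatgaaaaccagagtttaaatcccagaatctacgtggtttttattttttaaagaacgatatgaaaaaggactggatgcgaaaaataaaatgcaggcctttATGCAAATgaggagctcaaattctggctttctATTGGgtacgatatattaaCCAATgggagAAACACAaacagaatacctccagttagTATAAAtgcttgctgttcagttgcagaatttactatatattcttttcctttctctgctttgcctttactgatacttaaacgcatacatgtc
Hist1h3b, chr13:23752095-23752394: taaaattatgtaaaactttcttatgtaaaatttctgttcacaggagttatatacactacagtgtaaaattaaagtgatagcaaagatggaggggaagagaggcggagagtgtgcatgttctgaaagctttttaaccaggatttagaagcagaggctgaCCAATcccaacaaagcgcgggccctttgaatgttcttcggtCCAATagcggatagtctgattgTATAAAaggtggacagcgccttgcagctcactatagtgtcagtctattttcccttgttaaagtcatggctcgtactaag
All 4 windows hold CCAAT, and the 3 of members called lower in either genotype hold TATAAA, which the Hist1h1c window does not. TATAAA also stood in 4 of the 9 members with at least 1 CPM that had a promoter in RefSeq, none of them called lower. Whether these motifs go with the direction of change was not tested. Only exact matches were marked, and the Hist1h1c window holds the run tatatata, which a search for TATAAA does not find. Over the family, 62 members had a promoter in the RefSeq table. The octamer stood in 14 of the 62, namely 7 of 18 H2a and 7 of 16 H2b, and in 1.74% of all 32851 promoters of the same length. CCAAT stood in 53 of the 62 members, against 37.4% of all promoters, and TATAAA in 35, against 13.6%. By type, CCAAT stood in 6 of 6 H1, 18 of 18 H2a, 16 of 16 H2b and 10 of 10 H3 promoters, but in 3 of 12 H4 promoters. The H1 box stood in 9 of the 62, 5 of them among the 6 H1 genes, against 7.18% of all promoters. A match describes letters in the window and nothing about binding.

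Within quiescence, levels at day 12 were set against those at day 8 in a fit of the 16 libraries by genotype and day, which tested 15439 genes, 26 of them members. Harvests of a line on different days were counted as independent in that fit. Of the members, Hist1h1c was called higher in the mutant and none was called lower, beside 0.214% of all genes higher and 0.874% lower (1.09% in either direction). In the wildtype no member was called higher or lower, beside 0.175% and 0.641% of all genes (0.816% in either direction). At an unadjusted p under 0.05 in this edgeR fit there were 2 members in the mutant and 4 in the wildtype. Beside them stood 1350 and 1214 of all 15439 genes. The mutant change of Hist1h1c from day 8 was 0.58 on the log2 scale (SE 0.12, adjusted p = 0.0385), and the wildtype change was 0.55 (SE 0.12, adjusted p = 0.0621). The mutant call was lost when either line of either genotype was left out. With the line as replicate block, or without mutant line 1 or 2, the wildtype count was 1, and DESeq2 also called 1.

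Summed over a type, H1 had 35.4, 54.8, 85.1 and 80.3 CPM at days 2, 8, 10 and 12 in the mutant, against 36.5, 57.4, 74.9 and 83.3 CPM in the wildtype. H3 had 3.57, 7.87, 9.33 and 9.10 CPM in the mutant and 3.88, 7.13, 9.33 and 10.4 CPM in the wildtype. The sums of H1 and H3, and also those of H2a and H2b, were higher at every quiescent day than at day 2 in each genotype. H2a had 18.1, 22.6, 24.0 and 19.5 CPM in the mutant and 16.1, 23.3, 26.5 and 24.9 CPM in the wildtype, and H2b 18.7, 23.2, 32.4 and 25.1 CPM in the mutant and 19.1, 23.6, 25.7 and 24.7 CPM in the wildtype. H4 was the exception, with 3.56, 2.51, 2.80 and 2.37 CPM in the mutant and 3.69, 3.19, 2.40 and 2.76 CPM in the wildtype. These sums follow the leading gene of each type and were not tested. Over members below 1 CPM alone, the sums of H2a, H2b and H3 were lower at every quiescent day in each genotype. H3 then had 1.035, 0.6725, 0.5165 and 0.63 CPM in the mutant and 1.461, 1.012, 0.4656 and 0.8096 CPM in the wildtype. Those of H4 were higher at every quiescent day, and those of H1 went both ways in the mutant. They rest on few counts and were not tested either.

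The comparison of mutant with wildtype asks whether the Zac+/- genotype changes the histone transcripts. No member was called in proliferative cells (0.00635% of all genes called), in quiescent cells (0.00635%) or for the difference of the state change between genotypes (0%), and none under any of the 16 alternatives, DESeq2 included. At an unadjusted p under 0.05 there were 1, 0 and 0 members, beside 451, 76 and 265 of all genes. Hist1h1c differed by -0.05 on the log2 scale in proliferative cells (95% interval -0.38 to 0.28) and by 0.05 in quiescent cells (-0.27 to 0.37). Its sign turned with the lines or days used. The 1 member below 0.05 was Hist2h3c2-ps in proliferative cells, at 0.285 ± 0.0513 CPM in the mutant and 0.615 ± 0.0333 CPM in the wildtype (SD, n = 2 lines), a log2 difference of -1.10 (SE 0.39, adjusted p = 1 in edgeR). For Hist1h4i the quiescent interval ran from -1.47 to 1.18, so a difference of that size was not detectable at this depth and replication.

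Other genes of histone supply were counted from lists of known members, and were compared with the clustered genes only by counts and medians. Over all genes, 21.1% were called higher and 21% lower in the quiescent mutant, and 23.9% and 23.7% in the quiescent wildtype. All 32 DNA replication genes were lower in quiescent cells of both genotypes, with medians of -1.84 in the mutant and -1.92 in the wildtype. Rrm2, the small subunit of ribonucleotide reductase, averaged 41.5 CPM in quiescent and 263 CPM in proliferative mutant lines, against 41.4 and 298 CPM in the wildtype (log2 fold changes -2.70 and -2.94, adjusted p = 7.84e-07 and 3.16e-07). Tk1, thymidine kinase, had log2 fold changes of -2.28 in the mutant and -2.64 in the wildtype. Rrm1, the large subunit, and Pole, the catalytic subunit of DNA polymerase epsilon, had -2.04 and -2.23 in the wildtype.

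Histone chaperones carry new histones to DNA, and 20 of 27 were lower in each genotype, with 1 higher in the mutant and 2 in the wildtype. Their medians were -0.73 and -0.88. Asf1b, an H3-H4 chaperone, was lower, with log2 fold changes of -2.48 in the mutant and -2.58 in the wildtype (SE 0.15 in each). Chaf1a and Chaf1b, subunits of chromatin assembly factor 1, had wildtype changes of -1.76 and -2.08, and the H2A-H2B chaperone gene Nap1l1 had -1.52. The rising genes were Ubn2 in both genotypes and Ubn1 in the wildtype, subunits of the HIRA complex that deposits H3.3, named after their values were seen.

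Of 25 genes for histone mRNA synthesis, processing and decay, 14 were lower and 2 higher in the mutant, and 16 lower and 2 higher in the wildtype, with medians of -0.38 and -0.51. Ccne2 (cyclin E2) was lower, with log2 fold changes of -2.14 in the mutant and -2.40 in the wildtype. Wildtype changes were -1.60 in Ccne1 (cyclin E1), -1.54 in Cdc25a, a phosphatase that activates Cdk2, and -1.16 in Cstf2, a cleavage stimulation factor. The next genes were named after their values were seen. Slbp, for the stem-loop binding protein, averaged 34.2 CPM in quiescent and 58.5 CPM in proliferative mutant lines, against 33.1 and 62.6 CPM in wildtype lines (log2 fold changes -0.81 and -1.02, adjusted p = 0.000491 and 9.23e-05). Npat, the coactivator of histone transcription, had changes of -0.18 and -0.26 that were not called. The 2 that rose were Zcchc6 and Zcchc11, uridylyltransferases of RNA decay.

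Replacement histones are made from genes outside the clusters, in general with poly(A)-tailed mRNAs and not only in S phase. Of the 16 listed, 12 were tested: 2 were higher and 4 lower in the mutant, and 3 higher and 4 lower in the wildtype. Among all genes 21.1% were called higher in the mutant and 23.9% in the wildtype. Cenpa, the centromeric H3, averaged 10.4 CPM in quiescent and 42.7 CPM in proliferative mutant lines, against 9.10 and 41.3 CPM in wildtype lines (log2 fold changes -2.08 and -2.28). H2afx and H2afz, for H2A.X and H2A.Z, had wildtype changes of -1.61 and -1.74, and H2afy, for macroH2A, had -0.82. Named after their values were seen, H1f0, the linker histone of non-dividing cells, rose by 0.65 in the mutant (SE 0.18, adjusted p = 0.0156) and by 0.69 in the wildtype (SE 0.18, adjusted p = 0.0101), and H3f3a, for H3.3, rose by 0.55 and 0.54. The third wildtype call was Hils1, whose fold is not given because both proliferative wildtype libraries had 0 counts.

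Of 14 further genes of chromatin and histone transcription, 7 were lower in the mutant and 9 in the wildtype and none was higher, and the wildtype changes of Hmga1, Hmga2, Hmgb2 and Cbx5 were -3.49, -2.57, -1.73 and -0.87. No gene of these 5 lists was called between genotypes in either state. From day 8 to day 12, the DNA replication genes had 11 lower calls in the mutant and 6 in the wildtype, with medians of -0.59 and -0.54. Over all genes 0.874% and 0.641% were called lower.

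**Figure D4:**
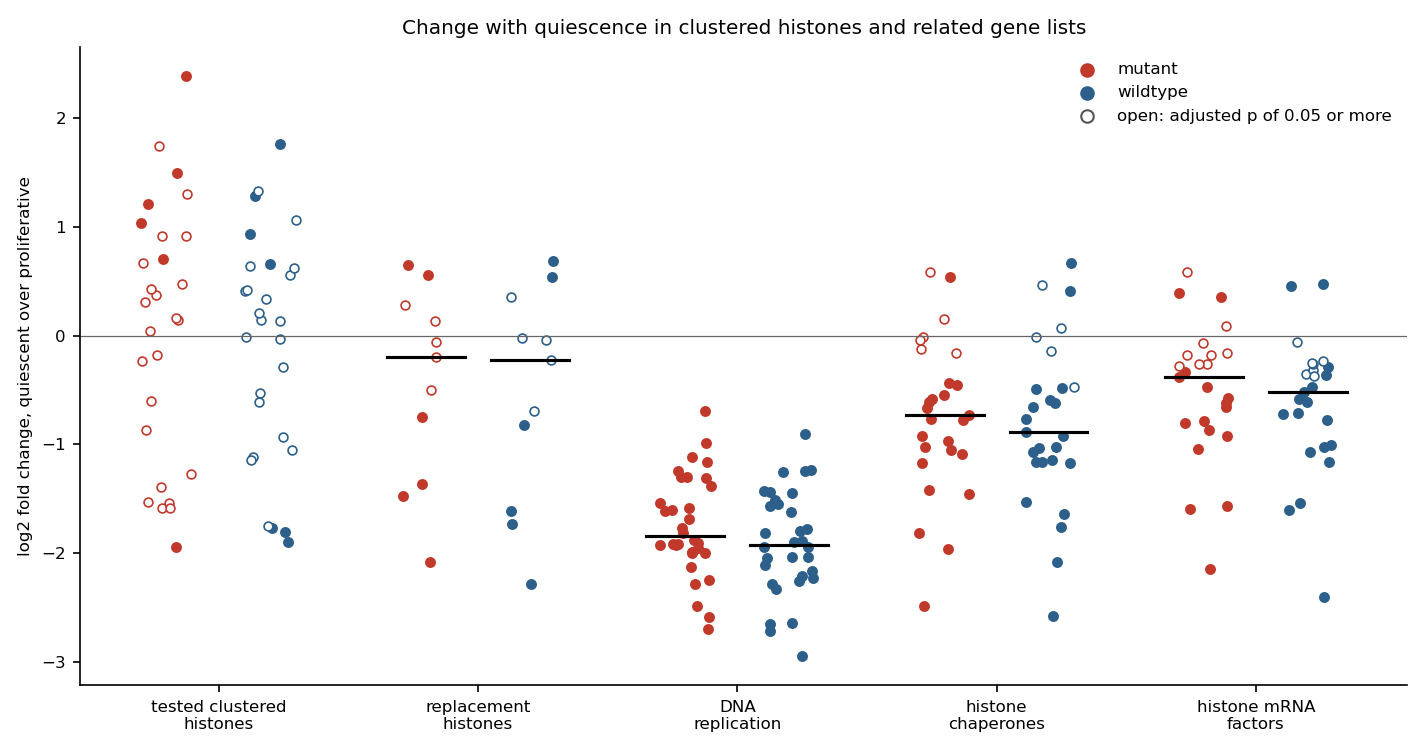
Log2 fold change of quiescent over proliferative cells for single genes, mutant left of wildtype in each column, with open points for an adjusted p of 0.05 or more and black bars at the median. No median is drawn for the 28 tested clustered histones, which passed a filter on low counts, and Hils1 is not drawn. All 32 DNA replication genes lie below 0, while 17 of the 28 clustered histones lie above 0 in the mutant and 15 in the wildtype.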

How the data were processed

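RNA-seq libraries (TruSeq Stranded kit, per the labels' protocols) were made from 4 fibroblast lines at 4 days. Per the submitters' processing notes, HTSeq 0.6.1p1 and bcl2fastq 2.18 were used, as were Bowtie2 2.2.9 and TopHat2 2.1.1, with mm9. The sources used here do not state the alignment settings, the annotation, the strand setting or the handling of reads with several matches. Near copies, overlapping and antisense genes may therefore exchange reads. The authors deposited raw counts per gene, with 28079241 to 61039793 per library.

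CPM were computed from total counts and serve for description, with the SD over lines. The main test was edgeR 4.0.16 (R 4.3.3; TMM scaling, filter on low counts by group, robust quasi-likelihood fit) on 8 summed libraries in 4 groups, with 4 residual degrees of freedom. The 16 libraries in 8 groups served for day 12 against day 8 (8 residual degrees of freedom). P-values were adjusted over all genes tested (Benjamini-Hochberg), and SEs are the log2 fold change divided by the root of the F statistic. An exact permutation of 2 lines against 2 cannot go below p = 0.333. On simulated data of this design the wildtype state test recovered 74.7% of 2-fold and 93.8% of 4-fold changes among 15417 genes. These shares are over all changed genes and do not give the recovery at the level of the 17 tested members below 1 CPM.

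The states of a line are paired by design: deviations of the same line in both states had a correlation of 0.248 in the mutant and 0.196 in the wildtype. The main fit has no block. Alternatives were RLE and upper-quartile scaling, DESeq2 1.42.0, limma-voom (3.58.1), other filters, a test against a 1.5-fold change, a replicate block, leaving out each line or day, and unsummed libraries. Named members were those with at least 1 CPM, and in full the highest of each type and those with the highest and lowest wildtype state change, besides any called between genotypes or days. From each gene list up to 4 genes with the smallest wildtype p were named. Members, lists and tests were chosen with earlier results of these data known. Sequences came from GENCODE M21 and RefSeq (GRCm38.p6) and no mm9 coordinates were used.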

Additional observations from a re-analysis of the deposited data

How the results depend on the processing

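No member count between genotypes changed under the 16 alternatives, and the number of members with a mean of at least 1 CPM stayed 11. Mutant members called higher in quiescence numbered 5, and 3 in a test against a 1.5-fold change or at least 3 and at most 5 with a line left out. Those called lower numbered 1, but 2 with DESeq2, 2 without day 8, 3 with 16 libraries unsummed, and 0 with a filter at a mean of 1 CPM or the 1.5-fold test, with 0 to 1 when a line was left out. In the wildtype the 4 higher became 2 in the 1.5-fold test and 2 to 5 with a line left out, and the 3 lower became 0 with the 1 CPM filter or the 1.5-fold test and 0 to 4 with a line left out, besides 2 without day 10, 4 with DESeq2 and 4 with unsummed libraries. Leaving out a line leaves 1 line in its group, which is then assumed to vary like the others. For day 12 against day 8, the mutant count of 1 became 0 in the 1.5-fold test and 0 with any line left out. The wildtype count of 0 became 1 with RLE, upper-quartile scaling, DESeq2, limma-voom with the line as block, the 1 CPM filter and the replicate block, and 0 to 1 with a line left out. The replicate block moved no other count, and lines with the same number in both genotypes did not deviate together (correlations of -0.028 and 0.011).

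Signs turned only in changes that were not called. In the mutant state change, leaving out lines gave -0.0789 (without mutant line 2) to 1.00 for Hist1h1d, -0.0255 (without mutant line 1) to 0.0926 for Hist1h2ac, -2.29 to 0.0719 (without mutant line 2) for Hist1h4i and -0.60 to 0.151 (without mutant line 1) for Hist2h2be. Hist1h2ac also turned without day 8 (-0.0081) or day 12 (-0.106). In the wildtype, Hist1h2ac turned without day 10 (-0.0267). Hist2h2be turned with upper-quartile scaling (0.0627), no filter (0.0023), the 1 CPM filter (0.0283), without day 8 (0.0634) or day 12 (0.0089), and ranged from -0.116 to 0.056 with a line left out, positive without wildtype line 1. Between genotypes, Hist1h1c ranged with a line left out from -0.169 to 0.0517 in proliferative cells, positive without mutant line 1. In quiescent cells it ranged from -0.0348 to 0.125, negative without mutant line 2 or wildtype line 1 (-0.0093), and was -0.0967 without day 10. The cause was not tested. Members under 1 CPM rest on few counts, and 3 counts in a library are up to 0.107 CPM.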
